A study of Mus musculus with 6 samples.

Results

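The proteasome genes were examined in the livers of mice fed a soy-enriched diet. The proteasome is the protease that degrades proteins tagged with ubiquitin. Its 20S core is a barrel of alpha rings, which gate the entry, around beta rings, some of whose subunits cut the peptide chain. The 19S cap recognises ubiquitin chains, unfolds the substrate with a ring of ATPases and feeds it into the barrel, and dedicated chaperones assemble both parts. Interferon-inducible catalytic subunits replace the constitutive ones in the immunoproteasome, which favours peptides suited to MHC class I, and PA28 and PA200 are caps that work without ATP.

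The genes were taken by symbol. A gene was included when its symbol, found through the RefSeq accession of a probe, began with Psma, Psmb, Psmc, Psmd, Psme or Psmg, and each gene was read at its brightest probe, the one with the highest mean signal over the 6 arrays. The rule found 49 genes with 74 probes, among 22911 genes and 56605 probes on the array. Of these, 46 encode proteasome subunits, activators or assembly factors, and the other 3 share only the prefix. Psmc3ip encodes a meiotic recombination factor, Psme3ip1 a protein that binds the activator PA28 gamma, and Psme2b is a near-identical copy of Psme2, which encodes PA28 beta. No probe was matched to Psme2 itself, and a probe for one of these copies may take up RNA of the other, so the value of Psme2b is uncertain. Of the 46 genes, 45 were well above background on all 6 arrays. Psmb11, the thymus-specific catalytic subunit, was well above background on none.

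Liver RNA came from 6 male mice, whose strain is not given in the sources used here. They were aged 12 weeks when the diets began. The 3 control mice ate granulated regular chow for 4 weeks, and the 3 soy mice ate a granulated chow with 25% soy bean and 75% regular food for the same time. Each mouse gave 1 array with 1 colour, an Agilent G3 Mouse Gene Expression v.2 array, and each value below is a background-corrected, quantile-normalized log2 signal. A log2 change is soy minus control, and 3 arrays per group limit its precision. In control 1, 2 and 3 the scanner output marked 37010, 36366 and 38163 spots as well above background, and in soy 1, 2 and 3 it marked 31308, 31988 and 32498, so every soy array had fewer than any control array. The arrays of control 1, control 2 and soy 1 shared a slide, as did those of control 3 and soy 3, while soy 2 was on a slide of its own. Hepatocyte markers were strong on every array, with 8 of 8 well above background.

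No proteasome gene passed in the comparison of soy with control livers (limma, Benjamini-Hochberg over all probes). To pass, a probe needed an adjusted p under 0.05 and also a fold change over 1.5 or below 0.66. Over all genes 105 of 22911 passed, which is 0.458%. At an unadjusted p under 0.05, 3 proteasome genes were higher in soy (Psmd5, Psmd11 and Psmc5) and 1 was lower (Psme3), against 7.22% and 7.04% of all genes. The smallest adjusted p was 0.134, for Psmd5. The median log2 change was 0.065 over the 46 genes, with 31 positive and 15 negative, against a median of -0.0056 over all genes. Genes well above background on all 6 arrays had a median of -0.0050, and 49.1% of them had a positive change. Values of the groups did not overlap for 9 proteasome genes higher in soy (19.6%) and 2 lower (4.35%). The same was found for 9.66% and 10.8% of all genes, and for 13.3% and 12.2% of the genes well above background on all 6 arrays. The median SD within a group was 0.10 (control) and 0.095 (soy) for the proteasome genes, against 0.16 and 0.13 for the genes well above background on all 6 arrays.

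**Figure D1:**
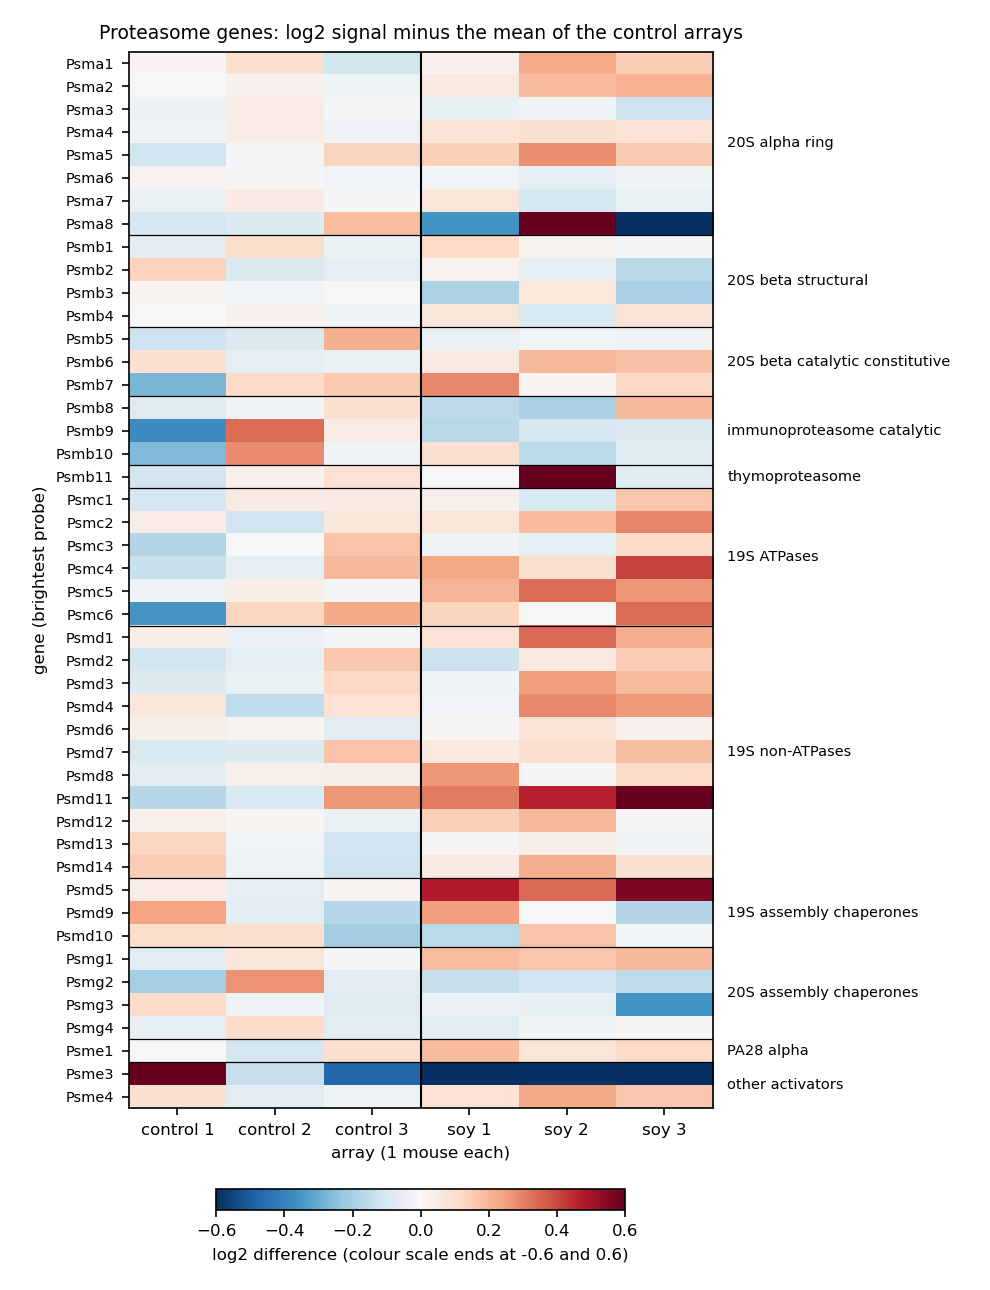
Log2 signal of the 46 proteasome genes (rows, brightest probe) on each of the 6 arrays (columns), minus the gene's mean over the 3 control arrays. Red is above and blue below the control mean, and values beyond the ends of the scale take the end colour. Psme3 is blue on the 3 soy arrays, Psmd5 and Psmd11 are red there, and Psmb11 was not above background on any array.

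The alpha ring of the 20S core, whose N-terminal tails gate the barrel, showed no common direction. Of its 8 genes, 4 had a positive and 4 a negative change, with a median of 0.035, between -0.068 for Psma3 and 0.19 for Psma5. Psma5 (NM_011967) had 13.92, 14.02 and 14.17 in control and 14.18, 14.31 and 14.19 in soy. The groups did not overlap, but soy 1 lay just above control 3, and the change of 0.19 (SE 0.11, adjusted p = 0.550) did not pass. Psma2 and Psma4 also had every soy value above the control values, with changes of 0.15 and 0.086. The dimmer probes of Psma4 gave 0.15, 0.13 and 0.19, all with overlap. Psma6 (NM_011968) had 14.71, 14.68 and 14.67 in control and 14.67, 14.64 and 14.66 in soy. Here the highest soy value lay just below the lowest control value, for a change of -0.031 (adjusted p = 0.924), and the dimmer probe of Psma6 gave 0.025. Psma8 is the testis-specific alternative to Psma7. Its signals were 8.93, 8.95 and 9.22 in control and 8.68, 10.14 and 8.24 in soy, so the mouse soy 2 stood above the other arrays, and its change was -0.015 (SE 0.43).

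The structural beta subunits, which build the beta rings without a catalytic site, were as mixed. Psmb1 and Psmb4 had changes of 0.044 and 0.020, and Psmb2 and Psmb3 of -0.068 and -0.11. None of the 4 separated the groups. Over the 14 constitutive 20S genes (the alpha ring without Psma8, the structural beta subunits and the 3 constitutive catalytic subunits) the median change was 0.032, with 8 positive and 6 negative.

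The 3 constitutive catalytic subunits are Psmb6 (beta 1, caspase-like), Psmb7 (beta 2, trypsin-like) and Psmb5 (beta 5, chymotrypsin-like). Psmb5 (NM_011186) had 13.70, 13.74 and 14.04 in control and 13.79, 13.81 and 13.81 in soy. All soy values lay between control 2 and control 3, and the change was -0.026 (SE 0.12, adjusted p = 0.954). Psmb6 (NM_008946) had 15.49, 15.35 and 15.36 in control and 15.45, 15.59 and 15.57 in soy. Control 1 lay above soy 1, so the groups overlapped, and the change was 0.14 (SE 0.098, adjusted p = 0.641). Psmb7 (NM_011187) had 12.99, 13.38 and 13.42 in control and 13.55, 13.27 and 13.38 in soy. Control 1 was low, the other 5 arrays overlapped, and the change was 0.14 (SE 0.14, adjusted p = 0.761).

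The immunoproteasome subunits Psmb9 (beta 1i), Psmb10 (beta 2i) and Psmb8 (beta 5i) were well above background on every array, and none differed between the diets beyond the spread of the replicates. Psmb8 (NM_010724) had 12.05, 12.10 and 12.22 in control and 11.97, 11.93 and 12.32 in soy. Soy 3 was the highest and soy 2 the lowest of the 6 arrays, for a change of -0.052 (SE 0.13, adjusted p = 0.913). Psmb9 (NM_013585) had 11.70, 12.41 and 12.12 in control and 11.91, 11.98 and 11.99 in soy. Its soy values lay inside the wide range of the control values, and the change was -0.12 (SE 0.17, adjusted p = 0.842). Psmb10 (NM_013640) had 13.78, 14.33 and 14.02 in control and 14.14, 13.88 and 13.97 in soy. Again control 1 was the lowest and control 2 the highest array, with a change of -0.049 (SE 0.15, adjusted p = 0.932).

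Each inducible subunit takes the place of 1 constitutive subunit, so the inducible one was also set against its partner within each array. The log2 signal of Psmb8 minus that of Psmb5 changed by -0.026 from control to soy (exact permutation test over the arrays, two-sided, p = 0.9, adjusted over the 3 pairs 0.9). For Psmb9 minus Psmb6 the change was -0.26, with an SD of 0.44 in control and 0.035 in soy (exact p = 0.4, adjusted 0.6). For Psmb10 minus Psmb7 it was -0.19, with an SD of 0.17 in control and 0.013 in soy (exact p = 0.2, adjusted 0.6). A design of 3 against 3 cannot give a p under 0.1 in this test. For Psmb10 and Psmb7 the 3 soy arrays lay at -0.20, -0.17 and -0.20 around the control mean, and the control arrays at 0.0076, 0.17 and -0.18. Control 3 thus lay among the soy arrays. For Psmb9 and Psmb6, the control arrays lay at -0.47, 0.39 and 0.084, on both sides of the soy arrays, which were at -0.22, -0.29 and -0.26.

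**Figure D2:**
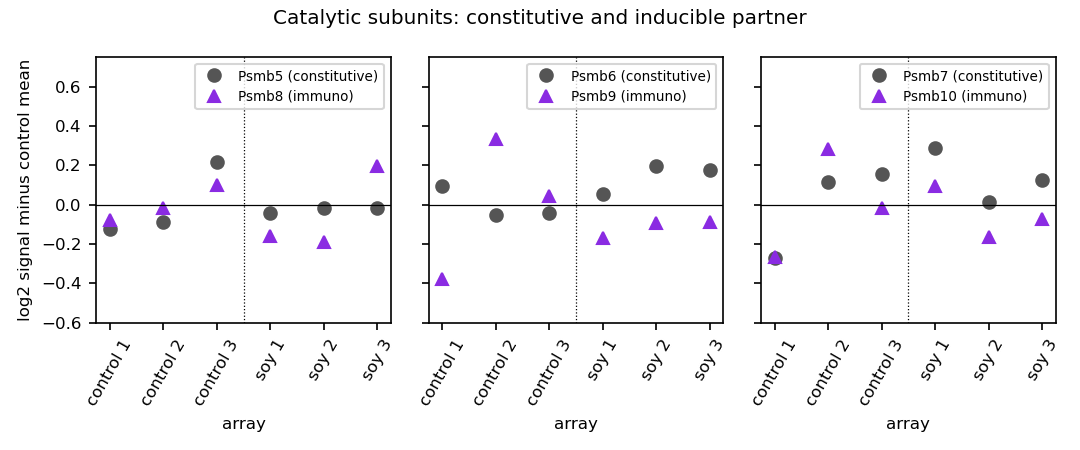
Log2 signal of each constitutive catalytic subunit (grey circles) and of its inducible partner (purple triangles) on the 6 arrays, each minus its own mean over the control arrays. The 3 soy values of Psmb9 lie within the range of its control values, and the soy values of Psmb5 stay close to its control mean.

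The promoters of a constitutive and an inducible beta subunit are shown here to set beside each other the sequences before genes of both kinds. They are RefSeq windows on GRCm38.p6 from 250 bases before to 50 bases after the gene's start, read 5′ to 3′ on the gene's strand. That of Psmb5 lies at chr14:54617946-54618245 on the minus strand, and that of Psmb9 at chr17:34187281-34187580 on the minus strand. Capitals mark the letters of the antioxidant response element (TGACNNNGC), which NRF1 and related factors bind, in Psmb5, and a CCAAT box on the other strand (ATTGG) in Psmb9.
Psmb5: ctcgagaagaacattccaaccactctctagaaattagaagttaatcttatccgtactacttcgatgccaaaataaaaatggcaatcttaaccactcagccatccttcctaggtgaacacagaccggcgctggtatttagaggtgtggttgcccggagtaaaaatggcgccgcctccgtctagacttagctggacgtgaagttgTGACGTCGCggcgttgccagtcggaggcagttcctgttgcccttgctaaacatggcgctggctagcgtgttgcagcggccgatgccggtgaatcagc
Psmb9: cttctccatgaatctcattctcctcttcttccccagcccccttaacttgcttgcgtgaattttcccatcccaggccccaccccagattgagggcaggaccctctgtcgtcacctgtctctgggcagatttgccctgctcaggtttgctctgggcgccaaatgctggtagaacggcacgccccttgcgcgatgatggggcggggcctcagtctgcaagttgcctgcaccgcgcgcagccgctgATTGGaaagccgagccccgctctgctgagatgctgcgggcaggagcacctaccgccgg

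The Psmb9 window shares 275 bases with that of Tap1, a subunit of the transporter that carries proteasome peptides into the endoplasmic reticulum, which is read in the other direction. Tap1 had a change of -0.00086 and Psmb9 of -0.12. Windows were found for 38 of the 46 proteasome genes, 40 windows in all. On either strand, TGACNNNGC was in 6 of them (15%, against 12.4% of the 32851 windows of all genes), among them those of Psmb5, Psmb6 and Psmc6. The core of the interferon-stimulated response element (GAAA and GAAA with any 2 bases between them) was in 5 (12.5%, against 3.44%), those of Psmb3, Psmd4, Psmd9, Psme1 and Psmg4. CCAAT was in 14 (35.0%, against 37.4%). The 3 immunoproteasome windows held neither of the first 2 motifs. These are matches of letters in short windows, not binding sites.

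Among the genes of the 19S base and lid that the symbol rule found, changes shared a sign. The cap subunits Sem1 (-0.017) and Adrm1 (0.20) fall outside that rule. Of the 17 genes found by it, 17 had a positive change, with a median of 0.12. By other scalings 16 were positive (processed signal) and 15 (75th-percentile shift), and with 1 array left out between 13 (without control 1) and 17. The median with 1 array left out lay between 0.096 (without control 1) and 0.20 (without control 3). The 6 ATPases Psmc1 to Psmc6, which form the unfolding ring, had a median change of 0.17, between 0.011 for Psmc3 and 0.27 for Psmc5. The 11 non-ATPase genes, which hold ubiquitin receptors and the deubiquitinase, had a median of 0.12, between 0.0072 for Psmd13 and 0.47 for Psmd11. Counted by probe, 28 of 29 probes of the 17 genes had a positive change, where the constitutive 20S genes had 14 of 22. All were read in the same 6 mice, so genes and probes are not independent of each other. The median difference of the 17 genes from the control mean was -0.069, -0.029 and 0.068 in control 1, 2 and 3. In soy 1, 2 and 3 it was 0.059, 0.10 and 0.18, so control 3 lay above soy 1. For 4 of the 17 genes the groups did not overlap, and all 4 (Psmc2, Psmc5, Psmd1 and Psmd11) were higher in soy. That is 23.5% of the 17, against 13.3% of the genes well above background on all 6 arrays.

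Psmd11 (NM_178616), a scaffold of the 19S lid, had 11.80, 11.87 and 12.23 in control and 12.27, 12.43 and 12.61 in soy. Control 3 and soy 1 were close, and the other soy arrays lay clear of the control arrays. The means were 11.96 ± 0.23 and 12.44 ± 0.17 (SD, n = 3), a change of 0.47 or 1.39-fold (SE 0.15, adjusted p = 0.278 by limma). Psmc5 (NM_008950), an ATPase of the ring, had 13.09, 13.15 and 13.11 in control and 13.32, 13.45 and 13.38 in soy. The lowest soy value lay above the highest control value by more than either group's SD, 0.032 in control and 0.065 in soy. The change was 0.27 (SE 0.092, adjusted p = 0.321).

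Psmd1 (NM_027357), a large scaffold of the 19S base, had 14.00, 13.93 and 13.95 in control and 14.05, 14.30 and 14.18 in soy. Its change was 0.21 (SE 0.10, adjusted p = 0.482), with soy 1 the closest to the control arrays. Its 2 dimmer probes gave 0.36 (adjusted p = 0.260) and 0.37 (adjusted p = 0.340), also without overlap. Psmd14, the deubiquitinase of the lid, changed by 0.12 on its brightest probe, where the groups overlapped, while a dimmer probe gave 0.32 (adjusted p = 0.240) without overlap. Psmd4, a ubiquitin receptor, gave 0.18 and 0.23 on its 2 probes, both with overlap. Among the 19S base and lid genes, Psmd13 alone had probes that differed in sign, with 0.0072 and -0.075. Over the 46 genes, 18 had several probes, which had the same sign in 14.

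**Figure D3:**
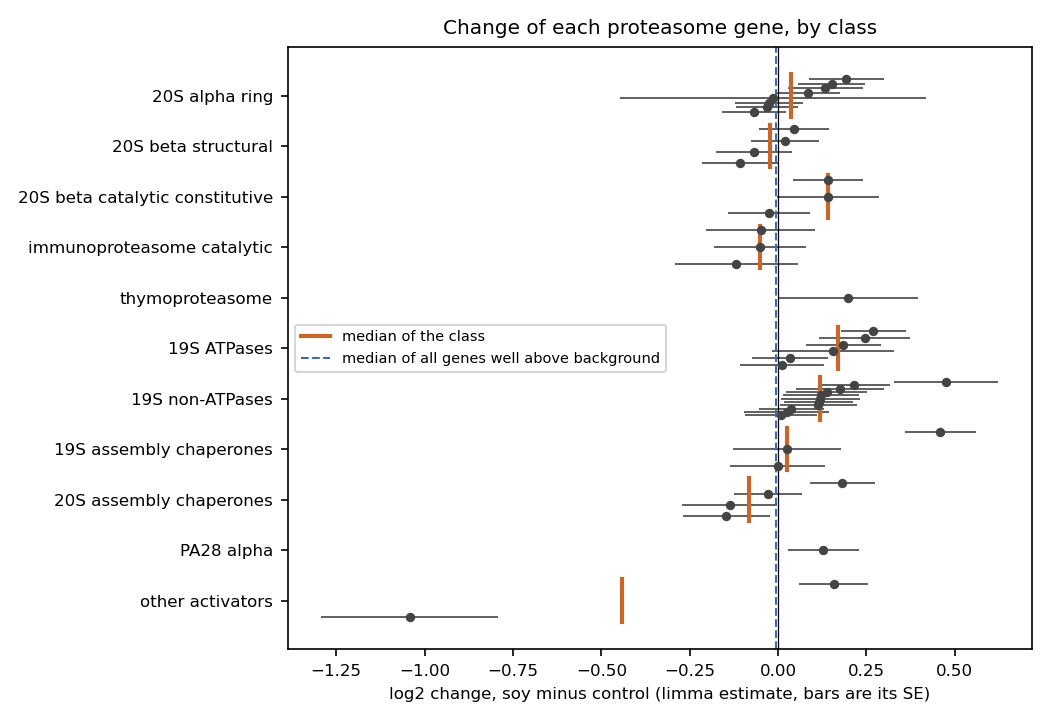
Log2 change, soy minus control, of each proteasome gene (points, with the SE from limma as bars), grouped by its place in the complex. Orange lines are class medians, and the dashed blue line is the median over all genes well above background on the 6 arrays, -0.0050. The 17 points of the 19S ATPases and non-ATPases lie to the right of 0 (16 with the processed signal and 15 with a 75th-percentile shift), and the point far to the left is Psme3.

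Of the 3 chaperones that assemble the 19S base, Psmd5 had the smallest p of all proteasome genes. Psmd5 (NM_080554), which holds ATPases of the ring until assembly is complete, had 10.93, 10.83 and 10.90 in control and 11.36, 11.23 and 11.44 in soy. Every soy array lay well above every control array. The means were 10.88 ± 0.052 and 11.34 ± 0.11 (SD, n = 3), a change of 0.46 or 1.37-fold (SE 0.10, adjusted p = 0.134 by limma). Neither the adjusted p nor the fold change met its threshold. Psmd9 and Psmd10, the other 2 base chaperones, changed by 0.025 and -0.0014, with overlap. The chaperones of the 20S core did not follow Psmd5 as a group. Psmg1 had a change of 0.18 with no overlap between groups on its brightest probe, while its dimmer probe gave 0.094 with overlap. Psmg2, Psmg3 and Psmg4 had changes of -0.14, -0.15 and -0.028.

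The largest change among the proteasome genes was that of Psme3, which encodes PA28 gamma, the nuclear cap that stimulates degradation of proteins without ubiquitin. Psme3 (NM_011192) had 15.07, 14.32 and 13.99 in control and 13.48, 13.33 and 13.45 in soy. The soy values were close together and below every control value, while the control values covered a range wider than the gap to the soy values. The means were 14.46 ± 0.55 and 13.42 ± 0.080 (SD, n = 3), a change of -1.04 or 0.486-fold (SE 0.25, adjusted p = 0.160 by limma). Psme3 thus met the fold threshold and not the adjusted p. The gene has 1 probe. With Agilent's processed signal, scaled by its 75th percentile on every array, both Psme3 (-1.07, adjusted p = 0.0337) and Psmd5 (0.50, adjusted p = 0.0258) had an adjusted p under 0.05, and of these Psme3 also met the fold threshold. By that signal 13138 probes passed, 90.8% of them higher in soy, against 198 probes, 59.6% higher, by the median signal. Leaving out control 1 brought the change of Psme3 to -0.74 (adjusted p = 0.137).

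The other caps differed from Psme3. Psme1 (NM_011189), the interferon-inducible PA28 alpha, had 14.95, 14.84 and 15.05 in control and 15.14, 15.02 and 15.07 in soy. Soy 2 lay below control 3, and the change was 0.13 (SE 0.10, adjusted p = 0.675). Psme4, the cap PA200, changed by 0.16 on its brightest probe, where soy 1 lay just under control 1, while a dimmer probe gave 0.49 (adjusted p = 0.324) without overlap. Psme2b changed by 0.18 and Psme3ip1 by -0.050. Psmc3ip had 10.18, 7.36 and 7.48 in control and 7.13, 7.28 and 7.46 in soy, so that control 1 stood far above the other 5 arrays, and its change was -1.05 (SE 0.68).

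**Figure D4:**
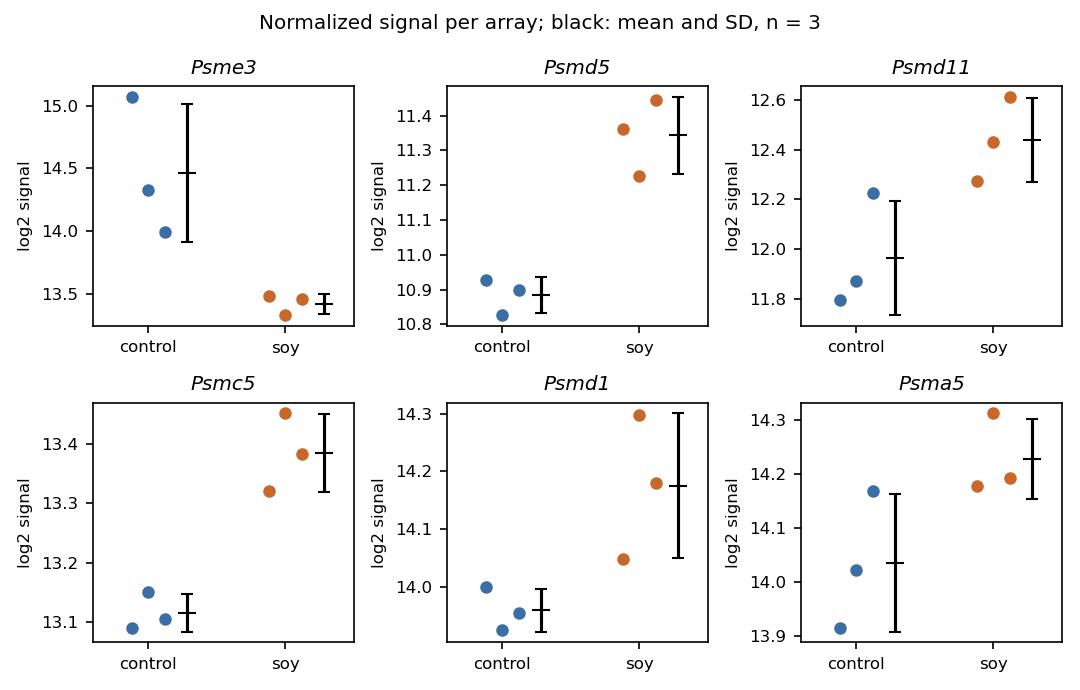
Log2 signal of 6 proteasome genes on each array (blue control, orange soy), with the mean and SD of 3 arrays per group in black. Each panel has its own axis, which does not start at 0. Values of the groups do not overlap in any panel, and the distance between groups is largest for Psme3, from 13.48 in soy to 13.99 in control.

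The windows before the starts of Psme3 and Psmd5, the genes with the smallest p-values, are given for their sequence, as above from RefSeq on GRCm38.p6. That of Psme3 lies at chr11:101315963-101316262 on the plus strand and holds a CCAAT box on the other strand (ATTGG, in capitals). That of Psmd5 lies at chr2:34870913-34871212 on the minus strand and held none of the 3 motifs. Their G and C made up 62.0% and 63.7% of the bases.
Psme3: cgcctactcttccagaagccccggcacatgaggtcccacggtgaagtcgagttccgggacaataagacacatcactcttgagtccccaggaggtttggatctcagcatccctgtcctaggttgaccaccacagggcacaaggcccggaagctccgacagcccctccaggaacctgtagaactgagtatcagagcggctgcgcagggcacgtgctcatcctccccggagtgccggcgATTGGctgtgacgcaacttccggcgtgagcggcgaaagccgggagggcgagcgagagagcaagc
Psmd5: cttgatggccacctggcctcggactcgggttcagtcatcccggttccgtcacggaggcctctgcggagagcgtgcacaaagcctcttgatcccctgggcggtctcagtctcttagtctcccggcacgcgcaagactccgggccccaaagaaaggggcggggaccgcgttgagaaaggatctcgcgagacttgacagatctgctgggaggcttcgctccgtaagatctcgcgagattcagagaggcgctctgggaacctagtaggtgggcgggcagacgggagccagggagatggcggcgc

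Some arrays lay at the ends of the range more often than others. Over the 45 genes well above background, control 1 had the lowest of the 6 values for 17 (37.8%), against 20.4% of all genes well above background. Soy 2 had the highest value for 15 (33.3%, against 13%) and soy 3 for 11 (24.4%, against 19.2%). Soy 1 had the lowest value for 2. Within the slide that held control 1, control 2 and soy 1, the median change of the proteasome genes was 0.057, and within the slide of control 3 and soy 3 it was 0.069. All genes well above background had medians of -0.0019 and 0.019 on these slides. Of the 46 genes, 29 had a positive change on the one and 29 on the other, 22 on both. Psmd5 changed by 0.48 and 0.55 on these slides, Psmd11 by 0.44 and 0.39, Psmc5 by 0.20 and 0.28, and Psme3 by -1.22 and -0.54. Since the groups did not overlap for these 4 genes, the same sign on both slides was fixed beforehand and adds nothing to it.

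Genes that work with the proteasome were read in the same fit. Of 18 listed components and partners, 17 were matched on the array, 0 passed, and 14 had a positive change, with a median of 0.098. Zfand5, which binds the 19S cap and stimulates degradation, had 12.07, 12.11 and 12.23 in control and 12.60, 12.58 and 12.78 in soy. The groups were far apart for its spread, with a change of 0.52 (SE 0.10, adjusted p = 0.105). Ubqln2, a shuttle that brings ubiquitinated proteins to the proteasome, changed by 0.41 (adjusted p = 0.242), also without overlap. These 2 made up 11.8% of the 17 genes, near the 13.3% higher without overlap among all genes well above background on the 6 arrays. Ecpas, a proteasome adaptor, changed by 0.32 and Adrm1, a ubiquitin receptor of the cap, by 0.20, with overlap. Pomp, the maturation factor of the 20S core, changed by 0.082. The 3 negative changes were -0.27 (Zfand2a, the lowest of the list), -0.13 (Ube3c) and -0.017 (Sem1). The 6 genes of ubiquitin and its activating enzymes had 3 positive and 3 negative changes, between -0.078 (Uba6) and 0.060 (Ubb).

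NRF1, encoded by Nfe2l1, is the factor that raises transcription of proteasome genes when proteasome activity is short, together with small Maf partners. Of 9 listed genes of this control, 0 passed. Nfe2l1 had 12.58, 12.65 and 12.62 in control and 12.71, 12.93 and 12.97 in soy. All soy values were above the control values, with a change of 0.25 (SE 0.11, adjusted p = 0.420 by limma). The small Maf genes went apart. Mafg changed by 0.41 (adjusted p = 0.355), Mafk by -0.39 (adjusted p = 0.165) and Maff by -1.18 (adjusted p = 0.372), each without overlap between groups. Maff had 10.51, 9.04 and 8.83 in control and 8.71, 8.39 and 7.75 in soy. Control 1 thus stood above the other arrays, and control 3 lay close to soy 1. Ufd1, also on the list, changed by 0.21 (adjusted p = 0.444) without overlap. Without overlap, 3 of the 9 genes were higher in soy (33.3%) and 2 lower (22.2%). Among all genes well above background on the 6 arrays the shares were 13.3% and 12.2%. Vcp, the ATPase that extracts NRF1 from the membrane, changed by 0.085, and Ddi2, the protease that cuts it, by -0.12.

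The MHC class I pathway uses the peptides that the immunoproteasome makes. Of its 14 listed genes 0 passed, 7 had a positive and 7 a negative change, and the median was 0.017. H2-K1, a class I heavy chain, changed by 0.36 (adjusted p = 0.314) and H2-D1, the other heavy chain, by 0.27 (adjusted p = 0.487), both without overlap. These 2 made up 14.3% of the 14 genes, near the 13.3% higher without overlap among all genes well above background on the 6 arrays. B2m, the light chain, changed by -0.16, and the interferon-response factor Irf1 by 0.13.

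The liver is a mixture of cells, and in bulk RNA fewer cells of a type and less RNA per cell cannot be told apart. Of 8 hepatocyte markers 7 had a negative change, with a median of -0.20, and 0 passed. Cps1, an enzyme of the urea cycle, changed by -0.47 (adjusted p = 0.176) and Tat, which breaks down tyrosine, by -0.76 (adjusted p = 0.323). The log2 of their summed signal was 20.92, 20.97 and 20.92 in control and 20.86, 20.77 and 20.77 in soy, with Serpina1a the brightest. Kupffer cell markers, all 11 well above background on every array, had a summed level of 15.51, 15.995 and 16.26 in control and 15.83, 16.10 and 16.38 in soy, with Cd5l the brightest. Of these 11 genes 0 passed, 10 had a positive change, and the exception Marco had the largest change in size, -0.73 (adjusted p = 0.589). Control 1 was thus the lowest array for the Kupffer markers. It was also the lowest for 17 of the 45 proteasome genes, Psmb7, Psmb9 and Psmb10 among them, but not for Psmb8.

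Of 14 leukocyte markers, 9 were well above background on all arrays and 2, Cd8a and Klrb1c, on none. Among those that passed, the B cell genes Cd79b (1.30, adjusted p = 0.0428) and Ms4a1 (0.93, adjusted p = 0.0393) rose in soy. Cd79a, another B cell gene, changed by 0.015. Both Ms4a1 and Cd79a lay near background in control, each well above it on 2 of 3 control arrays. In soy, Ms4a1 was well above it on 3 arrays and Cd79a on 0. Of the 14 markers 11 had a positive change, with a median of 0.12. The log2 of their summed signal was 16.11, 16.15 and 16.50 in control and 16.04, 15.88 and 15.64 in soy. The sum was carried by Cd4, their brightest gene, which changed by -0.49 (adjusted p = 0.310). Of 8 endothelial markers 4 had a positive change and 0 passed, with Clec4g the brightest and summed levels of 15.47, 15.56 and 15.53 in control and 15.55, 15.75 and 15.66 in soy. The part of these cell markers in the values of the proteasome genes was not tested.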

How the data were processed

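Liver RNA of 6 mice was measured on 1-colour arrays, 3 per group and 1 mouse each. The authors deposited, per the file headers, output of Agilent Feature Extraction 11.5.1.1. Its median intensity, of each spot and of the local background around it, is neither corrected nor scaled. Its processed signal is an intensity that had background subtracted before it was deposited. The authors deposited log2 values of the same spots, which share their quantiles across arrays. Their medians were 7.33 to 7.34, and they differed from the values here by 0.056 at most. According to the study's methods, limma was run on the median signals with Benjamini-Hochberg adjustment.

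Here the normexp method (offset 50) was applied to the median intensities, control spots were dropped, and quantile normalization and a log2 transformation followed. Outlier spots, as marked in the output, were not used, and repeated spots were averaged by probe. All 56605 probes were fitted with limma 3.58.1 in R 4.3.3 (lmFit and eBayes), with Benjamini-Hochberg adjustment over all of them. Symbols came through RefSeq accessions (GRCm38.p6) for 32994 probes (58.3%). Probe positions refer to another build and are not printed. Promoter windows and pairs were computed with Python 3.11.15, pandas 2.3.3 and scipy 1.17.1, and plots with matplotlib 3.10.9. On simulated data the fit recovered 64 of 100 log2 changes of size 1 and 94 of 100 of size 2. Both sizes were set in the same simulation of 56526 probes, which gave 4 false calls in all.

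Genes named in full were the catalytic subunits, Psme1, genes that passed, and the 5 largest rises and 5 largest falls among those whose groups did not overlap and that were detected on each array of 1 group or both. Psme2, on the same list, had no matched probe. Other genes were named as the extremes of a class, or as the smallest p in a list. Genes named beyond this for their role or their second probe were chosen after their values were seen. Some members of the marker and pathway lists are not reported here. The genes and lists were chosen with earlier results of these data known. Other settings tried were the deposited log2 values, the processed signal at the 75th percentile, a 75th-percentile shift, cyclic loess, uncorrected signals, an offset of 16, keeping outlier spots, probes well above background alone, the mean of a gene's probes, eBayes with trend and robust, slide or replicate number as a block, no fold threshold, and omission of each array.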

Additional observations from a re-analysis of the deposited data

How the results depend on the processing

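The count of probes that passed was 198, and it was 77 with an offset of 16, 13138 with the processed signal, 299 with a 75th-percentile shift, 493 with probes well above background alone, 130 with the mean of a gene's probes, 24 with slide as a block and 77 with a replicate block. Deviations of arrays with the same number correlated at 0.12, -0.060 and 0.097, so the numbers were not treated as pairs, and the replicate block changed no call of a proteasome gene. With 1 array left out the count was 102 (control 1), 71 (control 2), 199 (control 3), 50 (soy 1), 25 (soy 2) and 23 (soy 3). Proteasome genes that passed numbered 2 with the processed signal, Psme3 and Psmb11, the latter not above background on any array, and 0 in the other settings. Genes without overlap higher in soy numbered 10 to 14 with 1 array left out, with 14 without control 3 or without soy 1, and 13 with the processed signal and 6 with the 75th-percentile shift. Those lower in soy numbered 2 to 5 with 1 array left out, with 5 without control 1 or without soy 2, and 1 with the processed signal, the 75th-percentile shift, the deposited log2 values or the mean of probes. With fewer arrays groups overlap less often by construction, so counts with 1 array left out say nothing about these genes beside the counts over 6 arrays. The counts without overlap and the subunit pairs have no value with a block. The change of Psmb8 minus Psmb5 lay between -0.15 and 0.048 with 1 array left out, that of Psmb9 minus Psmb6 between -0.49 (without control 1) and -0.065 (without control 2), and that of Psmb10 minus Psmb7 between -0.28 (without control 3) and -0.11 (without control 2). With 1 array left out, Psmb7 lay between 0.0043 (without control 1) and 0.22 (without control 3), Psme1 between 0.077 (without control 2) and 0.18 (without control 3), Psmb5 lay between -0.089 and 0.082, Psmb8 between -0.18 and 0.018, Psmb9 between -0.31 and 0.050 and Psmb10 between -0.18 and 0.094, and Psmb10 was 0.024 with slide as a block. The median of the constitutive 20S genes lay between -0.00042 (without soy 1) and 0.065 (without soy 2) with 1 array left out, and was 0.074 with slide as a block. The cause of these shifts was not tested. The 75th-percentile shift moved the median of all genes to 0.11, that of genes well above background to 0.012 and that of the proteasome genes to 0.042. The median of the proteasome genes lay between 0.042 and 0.085 in all settings. A gene near background, such as Psmb11, has no level to compare.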
